A study of Mus musculus with 165 samples.

Results

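The gene segments that are joined to encode the variable part of antibodies were followed in the livers, and beside them the brains, of mice of 5 ages. The members are all rows whose symbol names a variable (V), diversity (D) or joining (J) segment of the immunoglobulin heavy, kappa or lambda locus. There were 382 such rows among 55471 genes: 185 Ighv, 20 Ighd and 4 Ighj at the heavy locus, 160 Igkv and 5 Igkj at the kappa locus, and 3 Iglv and 5 Iglj at the lambda locus. The animals were male mice of the strain C57BL/6J/Ukj, kept only to age, with no treatment or genetic change in the labels. They were 3, 9, 15, 24 and 28 months old, with 16, 16, 16, 17 and 18 livers and 15, 16, 16, 17 and 18 brains. Brain and liver libraries of the same age and number came from 1 mouse, and each age was spread over 3 library preparations. Each library was polyA-selected RNA of a whole tissue, so fewer cells of a type and less RNA per cell cannot be told apart.

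An antibody heavy chain is encoded by 1 V, 1 D and 1 J segment joined in the DNA of a single B cell, and a light chain by a V and a J segment of the kappa or the lambda locus. Every daughter cell inherits the join. A large number of cells of many origins therefore gives RNA from many V segments, and a population that descends from a single cell gives RNA from a single heavy and a single light V segment. The cells that carry this RNA are B cells and, at far higher amounts per cell, plasma cells. The deposited counts name the V segment only: they hold no junction sequence, so 2 cells that use the same V segment cannot be separated, nor can a heavy and a light segment be assigned to the same cell.

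On GRCm38 the heavy segments lie on chromosome 12 between 113428514 and 116010093, the kappa segments on chromosome 6 between 67555497 and 70723927, and the lambda segments on chromosome 16 between 19063225 and 19260859. Many V segments have a near copy in the same locus, and counts of these depend on how reads were assigned. The sequences below are those of the segments in 3 pairs described later, each of which led together in several livers, and of some of the segments that dominated single livers, with the near copy for 3 of them. They are the last 120 bases, or the last 200 for the first pair, of the annotated V exon in GENCODE M21, up to the point where the D or J segment is joined. Ighv1-52 (chr12:115145487-115145919, minus strand) and its nearest copy Ighv1-61 (chr12:115359140-115359572, minus strand) were 98.7% identical over 300 bases, and capitals mark the 4 bases at which these 200 differ:
Ighv1-52: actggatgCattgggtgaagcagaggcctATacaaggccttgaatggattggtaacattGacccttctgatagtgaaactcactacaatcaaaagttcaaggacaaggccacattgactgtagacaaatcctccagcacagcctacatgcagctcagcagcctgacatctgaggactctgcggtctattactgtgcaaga
Ighv1-61: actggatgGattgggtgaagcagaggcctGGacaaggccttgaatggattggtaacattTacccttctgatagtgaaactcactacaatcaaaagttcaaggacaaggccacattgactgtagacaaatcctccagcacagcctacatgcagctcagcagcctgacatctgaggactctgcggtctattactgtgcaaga
Igkv1-117 (chr6:68121046-68121827, plus strand) and Igkv1-110 (chr6:68270485-68271267, plus strand) were 96.7% identical, and the lambda segments Iglv1 (chr16:19085017-19085500, minus strand) and Iglv2 (chr16:19260401-19260859, minus strand) 97.3%. Capitals mark the bases that differ within each pair:
Igkv1-117: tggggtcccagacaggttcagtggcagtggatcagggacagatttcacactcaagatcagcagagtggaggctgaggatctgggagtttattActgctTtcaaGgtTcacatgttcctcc
Igkv1-110: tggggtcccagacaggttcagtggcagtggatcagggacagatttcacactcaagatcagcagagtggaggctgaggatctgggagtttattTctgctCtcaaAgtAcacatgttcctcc
Iglv1: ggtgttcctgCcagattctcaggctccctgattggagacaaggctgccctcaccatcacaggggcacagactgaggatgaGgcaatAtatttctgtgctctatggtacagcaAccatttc
Iglv2: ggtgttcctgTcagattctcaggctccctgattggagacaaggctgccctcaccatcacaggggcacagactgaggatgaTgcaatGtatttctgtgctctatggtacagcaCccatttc
Other leading segments without a printed sequence also had close copies, such as Ighv2-2 (98.0% identical to Ighv2-4), Ighv1-26 (97.3% to Ighv1-18) and Igkv13-84 (97.0% to Igkv13-85). For the 6 segments printed next the nearest identity was 77.2% for Ighv12-3, 86.3% for Igkv4-91, 78.9% for Ighv13-2, 91.7% for Igkv5-39, 93.3% for Igkv3-2 and 96.0% for Ighv1-53. Capitals mark the codons of the conserved tyrosine, tyrosine or phenylalanine, and cysteine that stand just before the third complementarity-determining region, the loop in which the join lies:
Ighv1-53: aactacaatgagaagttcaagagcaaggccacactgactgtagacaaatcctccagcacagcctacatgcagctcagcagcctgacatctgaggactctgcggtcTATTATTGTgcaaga
Igkv3-2: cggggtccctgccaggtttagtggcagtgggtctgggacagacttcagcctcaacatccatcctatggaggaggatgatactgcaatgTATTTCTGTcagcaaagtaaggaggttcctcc
Ighv12-3: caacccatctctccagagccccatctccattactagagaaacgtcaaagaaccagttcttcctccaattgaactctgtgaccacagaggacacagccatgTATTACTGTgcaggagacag
Igkv4-91: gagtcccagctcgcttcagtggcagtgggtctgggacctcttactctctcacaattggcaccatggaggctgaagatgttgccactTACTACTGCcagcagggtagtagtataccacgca
Ighv13-2: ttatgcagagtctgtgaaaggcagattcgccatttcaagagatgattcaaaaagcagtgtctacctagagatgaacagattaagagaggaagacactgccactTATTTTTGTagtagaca
Igkv5-39: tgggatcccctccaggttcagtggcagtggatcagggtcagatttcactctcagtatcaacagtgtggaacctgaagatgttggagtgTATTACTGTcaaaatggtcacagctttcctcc
The last 4 of these single segments lie at chr12:114366521-114366954, chr6:68768555-68769103, chr12:114357759-114358218 and chr6:69900424-69900977, all on the minus strand. Ighv1-53 lies at chr12:115158403-115158835 on the minus strand and Igkv3-2 at chr6:70698449-70699067 on the plus strand.

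Where 1 member of such a pair had a high count, the near copy usually had few. In the liver with the largest Ighv1-52 count, 24-month mouse 13, Ighv1-52 had 8650 counts and Ighv1-61 had 12, and Igkv1-117 had 22988 counts beside 21 for Igkv1-110. In 28-month mouse 13 Iglv1 had 1583 counts and Iglv2 had 4. In 24-month mouse 8 the order was the opposite, with 3690 counts for Iglv2 and 531 for Iglv1.

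The 83 liver libraries held 22791073 to 57490197 counts, except 15-month mouse 16 with 5823039, and the 82 brain libraries 19099341 to 73390216 counts, except 28-month mouse 15 with 11460609. Segment counts were a small part of this, 223649 over all livers and 6498 over all brains. Of the 382 segments, 274 had a count in some liver, 205 in some brain and 104 in neither tissue. Of the members, 133 are annotated as pseudogenes, which cannot encode an antibody chain; 44 of them had counts in some liver, and together they made up 0.258% of liver segment counts.

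The summed segment level of the liver rose with each age group. Levels are in CPM, counts relative to the scaled library total, and they compare a segment between libraries, not segments of unequal length. The lowest, median and highest liver were at 6.53, 9.25 and 28.7 at 3 months and at 9.83, 22.2 and 157 at 9 months. At 15 months they were at 19.7, 43.6 and 196. At 24 months they were at 39.3, 73.4 and 849, and at 28 months at 30.7, 86.8 and 475. Every liver of 24 and 28 months was thus above every liver of 3 months, while neighbouring ages overlapped. The sum is a description with no test. Within each of the 3 preparations the median V level was also higher in the old livers: 9.63, 8.93 and 9.09 CPM at 3 months against 135, 82.6 and 78.2 CPM at 28 months. Leaving out the leading heavy, kappa and lambda segment of each liver gave median V levels of 7.62, 19.3, 36.0, 49.8 and 59.96 CPM over the 5 ages, so the rise was present in the remaining segments too.

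**Figure D1:**
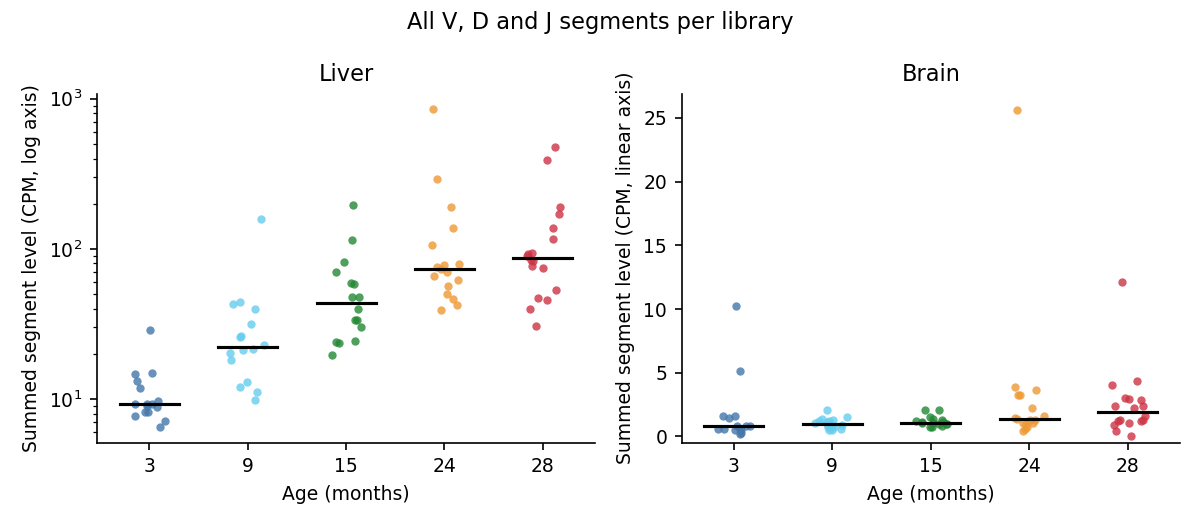
Summed level of all V, D and J segments in each liver (left, log axis) and brain (right, linear axis) against age in months; each point is 1 library and the bar is the median. Liver medians rose from 9.25 to 86.8 CPM, and brain medians from 0.791 to 1.91 CPM.

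Single segments were tested with edgeR's quasi-likelihood test over all liver libraries, with Benjamini-Hochberg adjustment over the 15579 genes that passed the filter on low counts. Of the 382 segments, 81 passed: 25 Ighv, 53 Igkv, 3 Iglv and no D or J segment. At 28 against 3 months all 81 of those tested were called higher (adjusted p under 0.05) and 0 lower, where 61.9% of all genes were called and 31.9% were called higher. A segment absent from young livers could pass the filter only by being present in old ones, so the count and its median log2 fold change of 2.85 (all genes tested 0.01) are not support by themselves. At 24 months 79 were called higher, beside 25.0% of all genes (49.0% called either way), and at 15 months 62, beside 3.06% (7.32% either way). At 9 months 18 were called higher, beside 1.53% (4.69% either way). Of the 81, 18 were first called at 9 months, 44 at 15 months, 18 at 24 months and 1 at 28 months. No segment had every 28-month liver above every 3-month liver, which held for 0.629% of all genes tested.

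A fitted fold change follows the group mean, and for many segments the mean was set by 1 liver. The highest liver of an age held more than 50% of the summed level in 8 of the 81 segments at 9 months, 1 at 15, 9 at 24 and 15 at 28 months. The ratio of the group medians does not depend on the highest liver. For the 77 segments with both medians above 0, its median on the log2 scale was 1.29 at 9 months, 1.97 at 15, 2.34 at 24 and 2.43 at 28 months against 3 months. These 77 are again segments that passed the filter, mostly through older livers, so the sign of the ratio is partly fixed by that choice. For 15 of them the fitted log2 fold change at 28 months exceeded that of the medians by more than 1.

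The kappa segment Igkv4-91 had the largest fitted change. Its lowest, median and highest level was 0, 0.0448 and 0.159 CPM at 3 months and 0, 0.429 and 197 CPM at 28 months, a fitted log2 change of 7.34 ± 1.18 (SE; edgeR adjusted p 1.43e-07). The highest liver, 28-month mouse 2, held 90.2% of the 28-month sum, and without it the log2 fold change was 4.42 (adjusted p 2.52e-05). Igkv13-84 behaved likewise: 0, 0.0390 and 0.219 CPM became 0.0303, 0.194 and 67.5 CPM, a log2 change of 4.90 ± 0.82 (adjusted p 3.42e-07), which was 2.33 without 28-month mouse 4 (adjusted p 7.84e-05). Igkv4-71 was at 0 in 14 of 16 livers at 3 months and in 2 of 18 at 28 months, and its log2 fold change of 5.84 ± 0.99 (adjusted p 5.07e-07) was 4.22 without 28-month mouse 2. Igkv5-39 rose from 0, 0.0714 and 0.446 CPM to 0.218, 1.41 and 59.9 CPM (5.64 ± 0.69, adjusted p 9.74e-11), or by 4.82 without 28-month mouse 2.

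Among heavy segments Ighv1-52 had the largest change, 5.96 ± 1.12 (adjusted p 4.32e-06), from 0, 0.0404 and 0.220 CPM to 0, 0.475 and 42.8 CPM, and it changed by 5.22 without 28-month mouse 4. At 24 months its levels were 0.0252, 1.11 and 220 CPM. Ighv1-9 changed by 4.80 ± 0.72 (adjusted p 2.42e-08), or 3.60 without 28-month mouse 13, which stood at 25.7 CPM where the median was 0.375. Ighv1-53 changed by 4.34 ± 0.83 (adjusted p 5.97e-06), and by 2.94 without 28-month mouse 2, which held 71.5% of its 28-month sum. Ighv1-26, with the highest median heavy level at 28 months of the segments named, changed by 2.92 ± 0.48 (0.221 to 1.14 CPM in the median, adjusted p 2.65e-07). Ighv11-1 and Ighv12-3 were also among the 6 highest heavy segments by mean at 28 months and were not tested, as they failed the filter. Ighv11-1 was at 0 in 12 of 18 livers at 28 months and at 26.7 CPM in mouse 4. Ighv12-3 was at 0 in 10 of 18 and at 71.0 CPM in mouse 2.

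The remaining kappa segments with a high 28-month mean were Igkv1-117, Igkv3-2 and Igkv19-93. Igkv1-117 went from 0.144, 0.435 and 1.10 CPM to 0.0964, 2.45 and 71.4 CPM (3.67 ± 0.74, adjusted p 1.47e-05), or by 2.76 without 28-month mouse 7. Igkv3-2 changed by 3.92 ± 0.81 (adjusted p 2.28e-05), or 3.29 without 28-month mouse 6, and its median was highest at 15 months, 3.24 CPM against 0.131 at 3 and 1.78 at 28 months. Igkv19-93 changed by 3.96 ± 0.65 (adjusted p 2.09e-07) and by 2.17 without 28-month mouse 8. The 4 segments with the smallest changes were Ighv1-56 (0.96 ± 0.34, adjusted p 0.0109), Ighv1-55 (1.32 ± 0.55, adjusted p 0.0339), Igkv8-27 (1.40 ± 0.47, adjusted p 0.0082) and Ighv1-81 (1.48 ± 0.42, adjusted p 0.00176). The groups overlapped for each of them. Ighv1-55 lost its call when any 1 of 7 libraries was left out, down to 0.87 (adjusted p 0.151). Within single preparations, where the groups are small, none of these 4 was called in preparation 1 or 2, with log2 changes down to 0.20 for Ighv1-56 and 0.21 for Ighv1-55 in preparation 2, and to 0.63 for Igkv8-27 and 0.27 for Ighv1-81 in preparation 1. Of the 18 named segments that were tested, edgeR called 13 of 18 in preparation 1, 8 of 18 in preparation 2 and 15 of 17 in preparation 3, and all changes were above 0.

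The lambda locus of the mouse has only 3 V segments, and all 3 were called. Iglv1 rose from 0.262, 0.491 and 2.61 CPM to 0.410, 2.39 and 48.0 CPM (2.87 ± 0.49, adjusted p 6.37e-07), or 2.08 without 28-month mouse 13. Iglv3 rose from 0, 0.0323 and 0.120 CPM to 0, 0.225 and 2.17 CPM (3.22 ± 0.50, adjusted p 7.92e-08). Iglv2 had 0, 0.0787 and 0.183 CPM at 3 months and 0, 0.223 and 0.731 CPM at 28 months, and its call at 28 months (1.93 ± 0.86, adjusted p 0.0449) was lost when any 1 of 15 libraries was left out, with adjusted p up to 0.0871, and also without the preparation term (1.57, edgeR adjusted p 0.102) or with all genes of at least 10 counts kept (1.93, adjusted p 0.0551).

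The constant-region genes, the part of each chain that the V segments are spliced to, moved the same way. Of 13 such genes 11 were tested, and these 11 were called higher at 28 months (median log2 change 3.53). Of all genes tested, 31.9% were called higher and 61.9% either way. The heavy constant gene of IgM, Ighm, went from a median of 21.5 to 102 CPM (3.29 ± 0.46, adjusted p 3.77e-09). The kappa constant gene Igkc went from 10.4 to 108 CPM (3.53 ± 0.40, adjusted p 5.58e-12). The IgA gene Igha went from 11.4 to 27.8 CPM (1.29 ± 0.40, adjusted p 0.00442) and the IgG gene Ighg2b from 1.70 to 17.3 CPM (3.63 ± 0.44, adjusted p 4.79e-11). Of 10 tested genes of the recombination, end-joining and hypermutation machinery 2 were called higher and 3 lower, with a median of -0.02. This share called was below the 61.9% of all genes, so the calls are not a result about this machinery. Ung, which removes uracil from DNA, was higher (0.71 ± 0.21, adjusted p 0.00306), and the end-joining gene Xrcc6 was lower (-0.13 ± 0.05, adjusted p 0.0127). Of the end-joining genes Xrcc5 and Prkdc the log2 fold changes were -0.06 ± 0.05 and -0.04 ± 0.09 (adjusted p 0.359 and 0.704).

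Genes of the cells that make antibodies were measured beside the segments, and their part in the segment changes was not tested. The calls that follow stand beside 61.9% of all genes called at 28 against 3 months, 31.9% higher. Of 12 B-cell genes 10 were called higher, and their summed level ran from 7.52 to 34.1 CPM at 3 months (median 12.9; the highest was mouse 12, and the next 18.2) and from 10.3 to 513 CPM at 28 months (median 32.4). The B-cell surface gene Ms4a1 rose by 3.56 ± 0.60 (adjusted p 4.01e-07), Cd79a and Cd79b, which carry the signal of the antigen receptor, by 3.01 ± 0.54 and 2.83 ± 0.49 (adjusted p 1.42e-06 and 7.35e-07), and the coreceptor Cd22 by 2.19 ± 0.39 (adjusted p 1.18e-06). Of 9 tested plasma-cell genes 6 were higher and 1 lower. Jchain, which links IgM and IgA units, rose by 2.21 ± 0.34 (adjusted p 4.67e-08) and the B-lineage coactivator Pou2af1 by 3.41 ± 0.53 (adjusted p 5.77e-08). Xbp1, a transcription factor that hepatocytes also express, was lower (-0.40 ± 0.14, adjusted p 0.0118), and Sdc1, likewise a hepatocyte gene, changed by 0.12 ± 0.09 (adjusted p 0.26). T-cell and macrophage genes moved as well, with 9 of 10 and 8 of 8 called higher, beside 31.9% of all genes. Of 5 B-cell precursor genes 1 was tested, Il7r, and was called higher, with a summed median of 0.959 CPM at 3 and 2.97 CPM at 28 months; Vpreb2 was at 0 in every liver. Of 5 genes of lymphoid stroma 1 was tested, the B-cell attractant Cxcl13, and was called higher (3.97 ± 0.43, adjusted p 2.12e-12), with a summed median of 4.43 and 69.8 CPM; Fdcsp was at 0 in every liver.

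More segments were detected in older livers. The number with at least 1 count had a lowest, median and highest value of 74, 106.5 and 141 at 3 months and of 116, 165.5 and 204 at 28 months, with medians of 143.5, 155.5 and 165 at 9, 15 and 24 months. Segments with more than 3 counts had medians of 26.5, 64.5, 80.5, 102 and 109. These numbers grow with the segment counts of a library. Taken at a fixed depth of 100 V counts, the expected number of V segments was 52.4, 56.4 and 60.3 at 3 months and 43.7, 58.5 and 61.0 at 9 months. At 15 months it was 44.3, 54.0 and 58.5, at 24 months 4.75, 48.0 and 60.005, and at 28 months 13.2, 50.5 and 58.4. At equal depth the number was therefore not higher in old livers, and the lowest values fell to 4.75 in 24-month mouse 13 and 13.2 in 28-month mouse 3. Summed over the livers of an age, 215 segments were seen at 3 months and 244 at 28 months, of which 13 and 59 were seen in every liver.

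In young livers no heavy or kappa V segment took most of its locus. The most abundant heavy segment took 7.61 to 16.1% of a liver's Ighv counts at 3 months (median 9.99%), and 8 different segments led among 16 livers, Ighv1-26 in 4 of them. Medians at 9, 15, 24 and 28 months were 7.98, 11.1, 16.0 and 16.6%, and the highest shares 29.7, 25.9, 96.9 and 90.8%. The most abundant kappa segment took 7.98 to 16.4% of Igkv counts at 3 months (median 11.5%), with medians of 7.77, 14.7, 17.9 and 19.1% and highest shares of 37.6, 44.4, 98.0 and 87.1% at the later ages. A heavy segment took over 50% in 0 of 16, 0 of 16, 0 of 15, 5 of 17 and 4 of 18 livers over the 5 ages. A kappa segment did so in 0 of 16, 0 of 16, 0 of 16, 4 of 17 and 4 of 18. Shares were read only in livers with at least 50 counts of the locus, which left out the heavy locus of 15-month mouse 16.

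**Figure D2:**
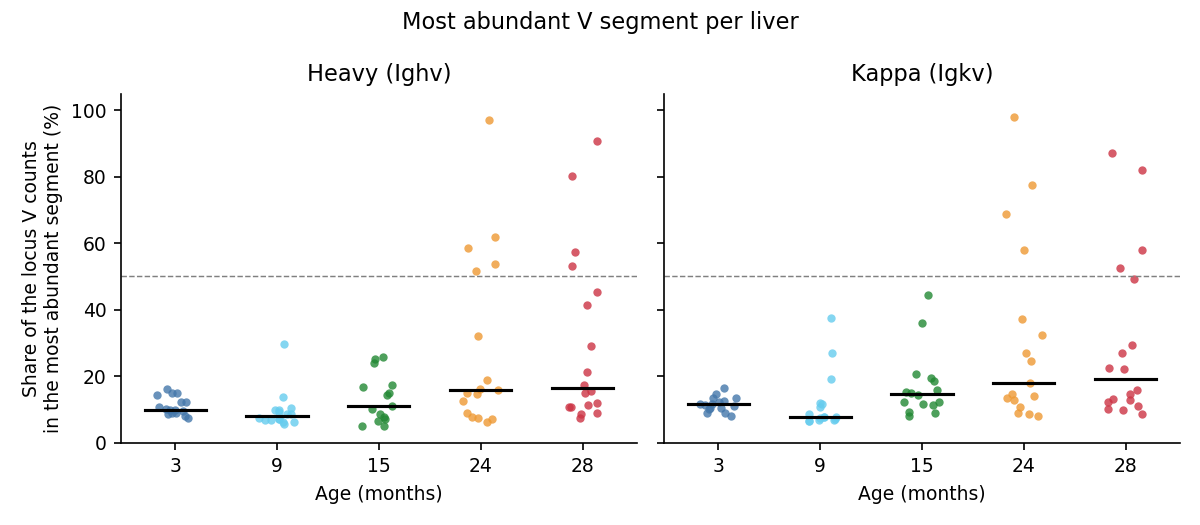
Share of Ighv counts (left) and Igkv counts (right) taken by the most abundant segment of each liver, in percent, against age in months; each point is 1 liver with at least 50 counts of the locus, the bar is the median and the dashed line marks 50%. Livers over the line occur at 24 and 28 months, 5 and 4 for heavy and 4 and 4 for kappa.

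A leading share is inflated at low counts, so the chance that 2 counts of a library drawn without replacement fall on the same segment was compared in its place. This concentration, whose expected value does not depend on depth, is near 0 for an even mixture and 1 for a single segment. For heavy segments it was 0.0345 ± 0.0068 (SD, n = 16) at 3 months, 0.165 ± 0.236 (n = 17) at 24 months and 0.181 ± 0.237 (n = 18) at 28 months. For kappa segments it was 0.0345 ± 0.0055, 0.190 ± 0.262 and 0.172 ± 0.224. In two-sided permutation tests (100000 resamples, adjusted over 8 tests) the heavy difference from 3 months was 0.131 at 24 months (adjusted p 0.0122) and 0.146 at 28 months (adjusted p 0.0119). The kappa differences were 0.155 (adjusted p 0.00736) and 0.138 (adjusted p 0.0119). Without 24-month mouse 13 the heavy difference at 24 months was 0.0822, and with each library left out in turn the permutation tests gave adjusted p up to 0.0242 over the 4 differences. The difference came from the upper part of each group: 10 of 17 and 9 of 18 livers exceeded the highest 3-month value for heavy segments, 13 of 17 and 10 of 18 for kappa, and the others lay within the 3-month range. Medians moved from 0.0333 to 0.0469 and 0.0547 for heavy and from 0.0336 to 0.0596 and 0.0569 for kappa segments. Restricted to livers with at least 100 heavy counts, the heavy differences were 0.129 and 0.145 and no longer passed (adjusted p 0.0931 and 0.0927). That restriction left fewer 3-month livers, with mouse 13 (88 heavy counts) among those removed. Within preparations 1, 2 and 3 the mean heavy concentration was 0.0368, 0.0331 and 0.0339 at 3 months and 0.258, 0.0739 and 0.180 at 28 months, and the kappa one 0.0329, 0.0317 and 0.0396 against 0.226, 0.0942 and 0.174. With labels permuted only within a preparation, each of these 4 differences passed, with adjusted p from 0.00348 to 0.0136.

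In single livers 1 heavy and 1 light segment held most counts of their locus. In 24-month mouse 13, with 33469 segment counts, Ighv1-52 took 96.9% of heavy counts (95% Wilson interval 96.6 to 97.3%) and Igkv1-117 98.0% of kappa counts (97.8 to 98.2%). The intervals cover counting error only. In 28-month mouse 3, with 3502 segment counts, Ighv13-2 took 90.8% (88.9 to 92.4%) and Igkv5-39 87.1% (85.6 to 88.4%). Ighv13-2, which was at 0 in 9 of 16 livers at 3 months, had 23.4 CPM there and a 28-month median of 0.0654 CPM. In 28-month mouse 13 the light chain was lambda: Ighv1-9 took 80.3% of heavy counts (77.8 to 82.6%), Iglv1 took 99.5% of lambda counts, and lambda took 79.9% of light V counts.

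In other livers more than 1 segment was high. In 28-month mouse 2 Ighv12-3 took 57.4% of heavy counts and Ighv1-53 28.9%, beside 57.9% of kappa counts for Igkv4-91 and 17.6% for Igkv5-39. In 28-month mouse 4 Ighv1-52 took 53.2% and Ighv11-1 33.1% (1100 counts, beside 1 count for Ighv11-2, which is 98.7% identical), with a single leading kappa segment, Igkv13-84, at 82.1%. Here the heavy segment Ighv1-52 stood without its frequent partner Igkv1-117, which took 0.708% of kappa counts. In 24-month mouse 5 Ighv3-6 took 53.8% and Igkv14-111 77.6%. In 24-month mouse 8 Ighv2-2 took 51.6% and Iglv2 87.0% of lambda counts, with lambda at 53.1% of light V counts. In 28-month mouse 8 Ighv4-1 took 45.4% and Igkv19-93 49.2%. Ighv2-2, Ighv3-6, Ighv4-1 and Igkv14-111 were chosen after their values were seen.

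These livers differed in the B-cell genes measured with them. The summed B-cell genes stood at 876 CPM in 24-month mouse 13, 513 in 28-month mouse 4, 365 in 28-month mouse 2, 236 in 28-month mouse 3 and 130 in 24-month mouse 1, against at most 34.1 CPM at 3 months, in mouse 12. In the liver of 24-month mouse 1, Ighv1-52 took 61.8% and Igkv1-117 58.0%. These 5 livers had the highest B-cell sums of all 83. The sum was 15.0 CPM in 24-month mouse 5, inside the 3-month range, 25.0 CPM in 28-month mouse 13, inside it only through 3-month mouse 12, and 52.7 CPM in 24-month mouse 8. Jchain stood at 23.4, 5.79 and 64.7 CPM in those 3 livers and at 2.08 to 10.7 CPM at 3 months, or at most 5.39 CPM without 3-month mouse 12. Among these 8 livers, which are not all of those with such a share, a leading share above 50% thus occurred over a wide range of B-cell gene levels. In heavy constant counts Ighm was the largest gene in each of these 8 livers, at 97.8% in 24-month mouse 13, 95.6% in 28-month mouse 3 and 69.2% in 24-month mouse 8, where the 3-month range was 20.5 to 77.1%. Over all 28-month livers the median of Ighm was also above those of Igha and Ighg2b (102, 27.8 and 17.3 CPM).

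Some heavy and kappa segments led together in several mice, and the pairs described here are those in which the heavy segment mostly led with 1 kappa segment. Ighv1-26, which led 12 livers, led with several kappa segments, such as Igkv1-110 in 3 livers and Igkv1-117 in 3. Ighv1-52 was the leading heavy segment in 12 livers, 6 at 24 and 6 at 28 months and 0 at younger ages, and in 11 of the 12 the leading kappa segment was Igkv1-117. Igkv1-117 led the kappa counts of 24 of 82 livers, 6 of them at 3 months. Ighv1-52 took over 5% of heavy counts in 1 of 16 livers at 3 months, 0 of 16 at 9, 0 of 15 at 15, 9 of 17 at 24 and 6 of 18 at 28 months. The livers came from all preparations at 24 months (2 of 5, 4 of 6 and 3 of 6) and from preparations 1 and 2 at 28 months (3 of 7, 3 of 5 and 0 of 6). Across the 17 livers of 24 months the shares of Ighv1-52 and Igkv1-117 had a Spearman rho of 0.85, and across the 18 of 28 months 0.55. These are descriptions, since shares within a locus are tied to each other and both segments come from the same library.

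**Figure D3:**
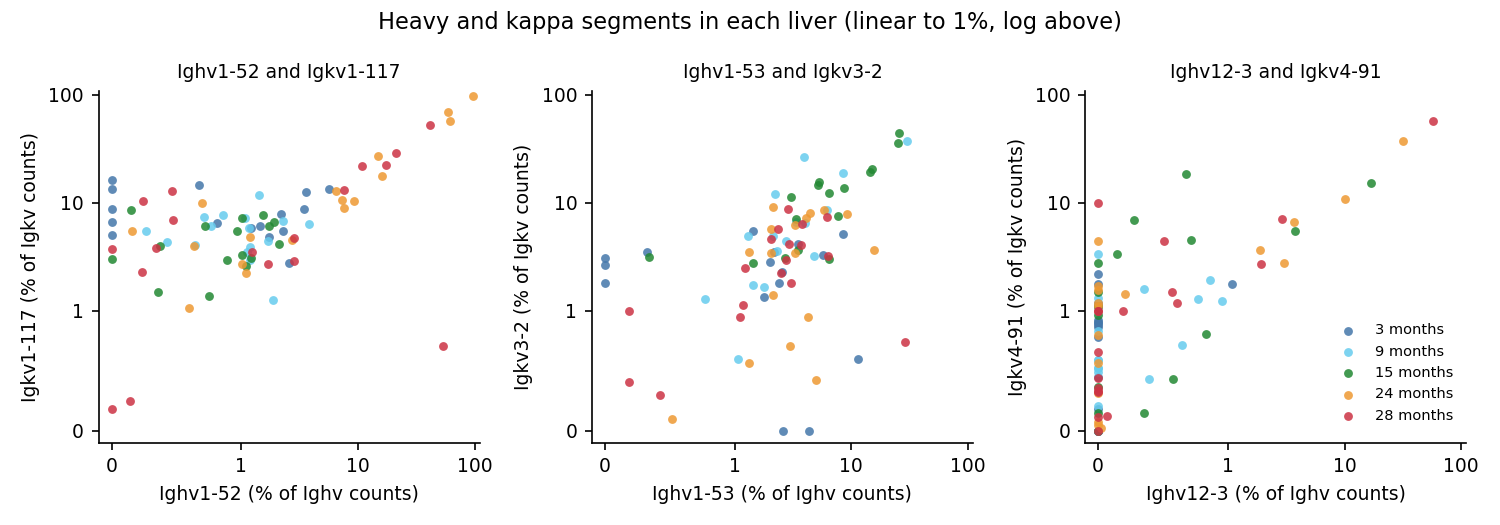
Share of a heavy segment among Ighv counts (x axis, percent) against the share of a kappa segment among Igkv counts (y axis, percent) in all 83 livers, for 3 pairs of segments, with no minimum of counts; both axes are linear to 1% and logarithmic above, and colours give the age. Points at the upper right are livers in which both segments were high, up to 96.9 and 98.0% for Ighv1-52 and Igkv1-117.

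A pair of other ages was Ighv1-53 with Igkv3-2. They led together in 6 livers, 2 at 9 and 4 at 15 months, with Ighv1-53 leading 7 livers and Igkv3-2 leading 15. The median share of Igkv3-2 was 2.74% of kappa counts at 3 months, 4.94% at 9, 11.8% at 15, 3.54% at 24 and 2.72% at 28 months, and its highest share was 44.4% in 15-month mouse 3. There Ighv1-53 took 25.9% of heavy counts. Across the livers of 24 and 28 months the shares of the pair had a Spearman rho of 0.41 and 0.51. In 9-month mouse 9, the liver with the highest segment level of its age, the pair took 29.7 and 37.6%. The share of Igkv3-2 thus had its highest median at 15 months, whereas Ighv1-52 had its highest median at 24 months, 6.49%, beside 1.33, 1.14, 1.01 and 1.46% at 3, 9, 15 and 28 months.

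Ighv12-3 led 3 livers, and in all 3 Igkv4-91 led the kappa counts. The combination of these segments, like that of Ighv11-2 with Igkv14-126, is known from B-1 cells that bind phosphatidylcholine. The shares of the pair were 16.8 and 15.3% in 15-month mouse 14, 32.0 and 37.2% in 24-month mouse 17 and 57.4 and 57.9% in 28-month mouse 2. Across the livers of 24 and 28 months their Spearman rho was 0.64 and 0.67. Ighv12-3 was at 0 in 15 of 16 livers at 3 months and still at 0 in 10 of 18 at 28 months. Ighv11-2 and Igkv14-126, chosen after their values were seen, were highest together in 24-month mouse 3, at 10.4 and 14.1%. The rho of this pair, the highest of the 4 at both ages, was 0.93 and 0.73.

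Between the older ages few segments changed, and most of those calls rested on 1 liver. At 24 against 15 months 12 segments were called higher and 1 lower of 81, beside 36.0% of all genes (21.6% higher, 14.4% lower). Of these 13 calls 3 held whichever liver was left out: Ighv1-52, Igkv1-117 and Igkv2-109. Ighv1-52 changed by 6.66 ± 1.01 on the log2 scale (edgeR adjusted p 1.04e-06), which was 3.76 without 24-month mouse 13 (adjusted p 0.000226). Igkv1-117 had 4.52 ± 0.74 (adjusted p 3.75e-06), which was 2.21 without that mouse (adjusted p 0.000585), and Igkv2-109 had 1.19 ± 0.35 (adjusted p 0.00509). The segment called lower was Igkv3-2 (-1.79 ± 0.64, adjusted p 0.0212), at -1.20 without 15-month mouse 11 (adjusted p 0.129). Iglv2 had 3.35 ± 0.75 (adjusted p 0.000316) and 0.22 without 24-month mouse 8 (adjusted p 0.693). Igkv14-111, chosen after its values were seen, changed sign, from 2.44 ± 0.69 (adjusted p 0.00385) to -0.25 without 24-month mouse 5 (adjusted p 0.65).

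At 28 against 24 months 5 segments were called higher and 3 lower, beside 15.3% of all genes (6.18% higher, 9.13% lower), and 1 of the 8 calls held whichever liver was left out. That was Igkv5-39 (2.60 ± 0.56, adjusted p 0.0005), at 1.77 without 28-month mouse 2 (adjusted p 0.0104). Igkv1-117 was called lower (-2.26 ± 0.67, adjusted p 0.0129) and stood at -0.01 without 24-month mouse 13 (adjusted p 0.989). Igkv13-84 was called higher (2.86 ± 0.67, adjusted p 0.00151) and stood at 0.45 without 28-month mouse 4 (adjusted p 0.506). Iglv2 was called lower (-3.63 ± 0.75, adjusted p 0.000304) and stood at -0.70 without 24-month mouse 8 (adjusted p 0.2). Igkv14-111 was called lower (-2.06 ± 0.66, adjusted p 0.0225) and stood at 0.63 without 24-month mouse 5 (adjusted p 0.272). Igkv2-109 was chosen after its values were seen.

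Heavy segments took about 1 of 3 V counts at each age. Their share was 31.4, 33.6 and 42.0% (lowest, median and highest liver) at 3 months, and the medians were 31.3, 28.9, 28.8 and 31.8% at 9, 15, 24 and 28 months. The mean fell from 34.7 ± 2.92% (SD, n = 16) at 3 months to 29.4 ± 4.41% (n = 17) at 24 months, a difference of -5.29 percentage points (two-sided permutation test, adjusted p 0.00208), with 12 of 17 livers below the lowest 3-month liver. In constant-region counts, of which heavy genes took 73.8% at 3 and 69.6% at 24 months, the difference was -4.20 points and did not pass (adjusted p 0.0637). At 28 months the V share was 32.2 ± 5.19% (n = 18), and its difference of -2.48 points did not pass (adjusted p 0.134). The highest liver was mouse 4 at 48.9%, and without it the difference was -3.47 points (adjusted p 0.0052). In constant-region counts the difference at 28 months was -6.70 points (adjusted p 0.00736).

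Kappa segments took most of the light-chain counts. Lambda segments took 4.70, 9.67 and 17.4% of light V counts at 3 months (lowest, median and highest liver). The medians were 9.48, 6.53, 4.61 and 4.56% at 9, 15, 24 and 28 months, and the highest livers 17.3, 15.4, 53.1 and 79.9%. The means, 10.5 ± 3.31% at 3 months, 7.65 ± 11.9% at 24 and 9.33 ± 18.0% at 28 months, differed by -2.84 points (adjusted p 0.543) and -1.15 points (adjusted p 0.982). In both old groups 9 livers lay below the lowest and 1 above the highest 3-month liver. Without 24-month mouse 8 the difference was -5.68 points (adjusted p 8.00e-05), and without 28-month mouse 13 it was -5.31 points (adjusted p 0.00104). On the log2 scale, an alternative chosen after the data were seen, all livers were kept and the share was called lower at both ages (-1.04 at 24 and -1.02 at 28 months, permutation test adjusted p 0.00314 and 0.00827). The call thus turned on 1 liver in each old group and on the scale. Iglv1 led the lambda counts of 44 of the 46 livers that had at least 50 of them, Iglv2 those of 24-month mouse 8 and Iglv3 those of 28-month mouse 4.

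**Figure D4:**
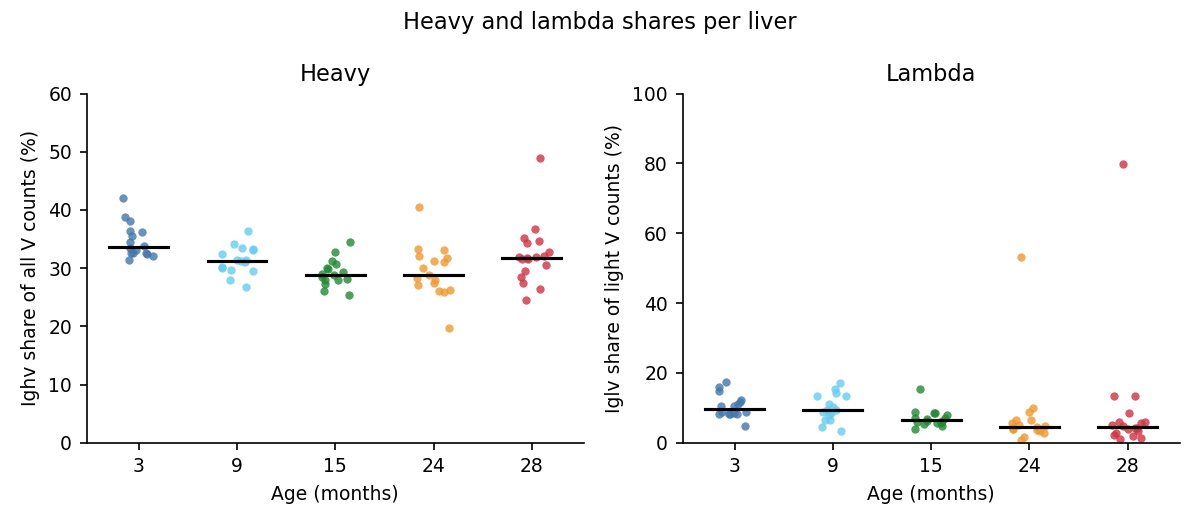
Ighv share of all V counts (left) and Iglv share of light-chain V counts (right) in each liver, in percent, against age in months; each point is 1 liver and the bar is the median. The lambda median fell from 9.67% at 3 months to 4.56% at 28 months, while 2 livers stood at 53.1 and 79.9%.

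The D and J segments are short, and few reads were counted on them. The median annotated length is 17 bases for Ighd, 53.5 for Ighj and 38 for Igkj, against 351 for Ighv and 358 for Igkv. The 20 Ighd segments had 29 counts over all livers, the 4 Ighj segments 819 and the 5 Igkj segments 2276, against 66528 for Ighv and 141098 for Igkv. None passed the filter. Ighj had a median of 0.0501 CPM per liver at 3 months and 0.269 CPM at 28 months, and 325 of its 819 counts came from 24-month mouse 13. Igkj had medians of 0.148 and 0.751 CPM. Within kappa at 28 months Igkj5 had the highest mean, 0.467 CPM, and Igkj1 the lowest, 0.166 CPM, with spreads wider than this difference (SD 0.616 and 0.231, n = 18).

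In the brain the segments were near the limit of detection. The summed level had a lowest, median and highest value of 0.219, 0.791 and 10.2 CPM at 3 months and of 0, 1.91 and 12.2 CPM at 28 months. Medians at 9, 15 and 24 months were 0.992, 1.06 and 1.34 CPM, and the highest brain of all was 24-month mouse 9 at 25.6 CPM. No segment passed the filter in the brain, where 28.3% of the 18711 genes tested were called at 28 against 3 months, so the difference between brain and liver was not tested by segment. With all genes of at least 10 counts kept, 108 segments were tested in the brain, of which 24 were called higher and 6 lower, a share to be read beside 18.2% of all genes called under that filter. The summed levels of the ages overlapped widely. A larger part of brain counts lay on Ighj, 892 of 6498 counts beside 1544 on Ighv, and these counts were present at all ages, with a median of 9 per brain at 3 months and 13.5 at 28 months.

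Segment usage in the brain was compared with that in the liver of the same mouse. With at least 50 counts in both tissues, 8 mice could be compared for heavy and 14 for kappa segments. The overlap of usage, the sum over segments of the smaller of the 2 shares, had a median of 27.2% between a brain and its own liver for heavy segments, against 16.1% for the mean with other livers of that age. The overlap was above that mean in 8 of 8 mice and above every other liver in 5. A brain and its own liver always shared a library preparation, whereas the other livers of that age came from all 3. The part of the preparation in the overlap was not tested. For kappa segments the medians were 29.6 and 17.0%, and the overlap was above the mean in 14 of 14 mice and above every other liver in 8. Brain and liver had the same leading segment in 2 of 8 mice for heavy and 3 of 14 for kappa. The share of the brain's leading segment was higher in the own liver than in every other liver of that age in 3 of 8 and 4 of 14 mice.

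**Figure D5:**
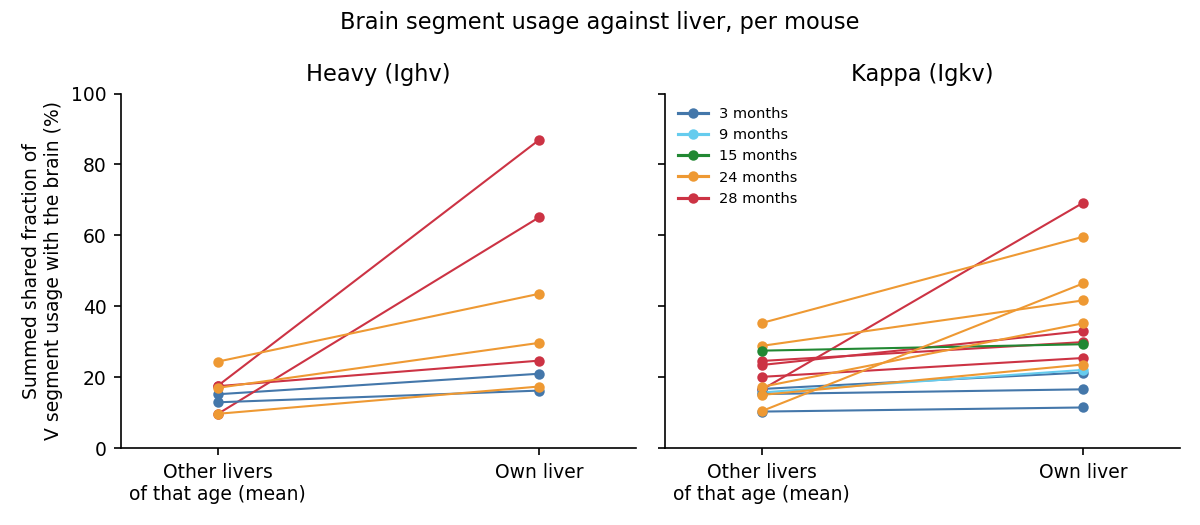
Overlap of V segment usage between a brain and the other livers of that age (left point, mean) and between the brain and the liver of the same mouse (right point), in percent, for heavy (8 mice) and kappa segments (14 mice); each line is 1 mouse. All lines go up, most in 28-month mice 2 and 4.

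The largest overlaps were in old mice. In 28-month mouse 4 the brain had 54 Ighv counts, of which 25 were Ighv1-52 and 18 Ighv11-1, the same 2 segments that led its liver, and the overlap was 86.9%. In 28-month mouse 2 Ighv12-3 took 82.5% of brain heavy counts and Igkv4-91 70.5% of brain kappa counts, where the liver had 57.4 and 57.9%. In 24-month mouse 9 Igkv6-15 took 709 of 901 brain kappa counts (78.7%) and 32.5% of those of the liver, and Ighv1-53 took 74.9% of brain and 15.6% of liver heavy counts. The brain of 24-month mouse 13, whose liver had the largest segment count, had only 8 segment counts, so a high liver did not always go with a high brain. In other mice, young and old, the leading brain segment was rare in the liver. Ighv1-76 took 34.4% of heavy counts in the brain of 28-month mouse 17 and 0.733% in its liver, and Ighv9-3 took 66.1% in the brain of 24-month mouse 8 and 1.20% in its liver. Ighv3-6 took 51.9% of heavy counts in the brain of 3-month mouse 15 and 0.87% in its liver, whereas the leading kappa segment of that brain, Igkv4-59 at 51.5%, took 4.19% of its liver and at most 2.21% of the other 3-month livers. Ighv1-50 took 44.4% in the brain of 3-month mouse 13 and 0% in its liver, where 88 heavy counts allow up to 3.41%. Ighv1-50, Ighv1-76, Ighv3-6, Ighv9-3, Igkv4-59 and Igkv6-15 were chosen after their values were seen.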

How the data were processed

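Poly(A)-selected RNA of 83 livers and 82 brains was sequenced, per the labels' protocols. The authors deposited 1 table per tissue of raw read counts per gene, which they made, per the submitters' processing notes, with cutadapt 2.8, HISAT2 2.1.0, SAMtools 1.9 and featureCounts of Subread 2.0.1 on GRCm38.p6 (mm10). The strand setting, the treatment of reads with several matches and the annotation release are not given in the sources used here; reads shared by near-identical V segments may be lost or split by them. All columns were used (0 left out). V, D and J segments were matched by symbol, and coordinates and sequences came from GENCODE M21. The members, gene lists and tests were chosen with earlier results of these data known.

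Counts were fitted per tissue over all 5 ages with edgeR 4.0.16 (TMM scaling, filterByExpr, quasi-likelihood test) with age and library preparation as terms, and p-values were adjusted by Benjamini-Hochberg over all genes tested; the procedure was tested on simulated data. Shares and concentration used libraries with at least 50 counts of a locus and two-sided permutation tests over libraries (100000 resamples). The named segments were the 6 Ighv and 6 Igkv of highest mean CPM at 28 months, all Iglv, the 6 largest and 4 smallest fitted changes, and the leaders of the 3 livers with the highest share of 1 segment. Each mouse gave 1 library per tissue, and every pair of livers of 1 age differed by more than counting noise. DESeq2 1.42.0, RLE scaling, other filters, single preparations and leaving out each library were tried as alternatives.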

Additional observations from a re-analysis of the deposited data

How the results depend on the processing

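Counts of called segments depended on which genes and samples entered the fit. In some comparisons they also depended on the method or on a replicate block. With all genes of at least 10 counts tested, 219 segments entered and the calls were 189 at 28 against 3 months (46.2% of all genes), 166 at 24 against 3 (33.6%), 33 at 24 against 15 (23.0%) and 22 at 28 against 24 months (10.1%), and 30 (24 higher, 6 lower) in the brain at 28 against 3 months, where the main filter left none to test. With only the 2 ages compared in the fit, fewer segments passed the filter: 21 of 21, 16 of 16, 6 of 6 and 0 of 4 tested were called by edgeR at 28, 24, 15 and 9 against 3 months (56.8, 42.8, 4.95 and 2.40% of all genes), 8 of 45 at 24 against 15 (36.6%) and 1 of 61 at 28 against 24 months (7.57%). Of the 4 tested at 9 months, 4 had an unadjusted p under 0.05. Preparations 1, 2 and 3 alone gave 64 calls of 89 tested, 41 of 78 and 78 of 87 at 28 against 3 months (39.9, 15.6 and 42.2% of all genes), and 52 of 89, 44 of 78 and 24 of 87 at 24 against 3 months (5.83, 15.5 and 33.4%). DESeq2 gave 29 of 78 at 9 against 3 (5.64% of all genes) and 5 of 64 at 28 against 24 months (16.4%); it gave no adjusted p for 3 and 17 of the 81 segments, which are not counted. With a replicate block the calls at 24 against 15 and 28 against 24 months were 4 and 1 of 81 (35.8 and 13.7% of all genes); the numbers are shared labels only, since 161 same-numbered pairs of livers had a mean correlation of -0.00653 and 3 of 83 livers correlated best with their own number. The tissue-by-age term and the block on the mouse gave no value, as no segment passed the filter in the brain. Leaving out each library in turn gave 77 to 84 calls at 28 and 75 to 83 at 24 against 3 months, 54 to 71 at 15 against 3, 9 to 14 at 24 against 15 and 7 to 9 at 28 against 24 months. With at least 100 heavy counts the heavy concentration differences of 0.145 and 0.129 did not pass. On the log2 scale the lambda share was lower by -1.02 at 28 and -1.04 at 24 months and passed (permutation test, adjusted p 0.00827 and 0.00314). Leave-one-out differences of the lambda share ran from -5.31 to -0.666 points at 28 and from -5.68 to -2.37 at 24 months, and those of the heavy share from -3.47 to -1.998 at 28 months. In constant-region counts the heavy share differed by -6.70 and -4.20 points. Medians of segments detected at 28 months were 109 with more than 3 counts and 50.5 at 100 V counts. The cause of these shifts was not tested. Among the results recomputed under the alternatives, Igkv14-111 changed direction between the older ages without 24-month mouse 5. The number of segments detected also did: its median was higher at 28 than at 3 months, but lower at 100 V counts. None of the others changed direction. Few counts per library fell on brain segments and on D and J segments, which limits what could be tested there.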
